A study of Mus musculus with 8 samples.

Results

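Amino acid transporters are membrane proteins that carry amino acids, and some closely related compounds such as taurine and creatine, into and out of cells and lysosomes. The transporter genes described here were all rows of the deposited expression table whose gene symbol belongs to the solute carrier families Slc1, Slc3, Slc6, Slc7, Slc36, Slc38 or Slc43, which gave 63 of the 38392 genes in the table. They comprised 7 Slc1 genes, 2 Slc3 genes, 21 Slc6 genes, 15 Slc7 genes, 4 Slc36 genes, 11 Slc38 genes and 3 Slc43 genes, and all 63 are protein coding in the GENCODE M21 annotation.

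The design asks how eosinophils that have settled in the small intestine differ in gene expression from those still in the bone marrow. Eosinophils, granulocytes that form in the marrow and persist in the intestinal lamina propria, were sorted from wildtype female C57/BL6 mice, with 4 libraries for each tissue and no treatment in either group. Intestinal cells were gated as CD11b+MHC-II-SiglecF+SSChi after the epithelium had been removed, the tissue digested with enzymes and CD11b+ cells bound to magnetic beads. Marrow cells were gated as CD11b+Ly6G-Ly6C-SiglecF+SSChi without digestion or beads. Tissue and handling therefore changed together and cannot be told apart. Libraries are named by their columns in the deposited table, where BM_1, BM_3, BM_4 and BM_5 are the marrow libraries and SI_6, SI_7, SI_10 and SI_11 the intestinal ones.

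Many of these carriers work in pairs or in series. The heavy chain Slc3a2, also called 4F2hc or CD98, is a single-pass glycoprotein that brings a light chain of the Slc7 family to the plasma membrane, and the light chain sets which amino acids are moved. Light chains are exchangers: the cystine carrier Slc7a11 (xCT) trades intracellular glutamate for extracellular cystine, the disulphide form of cysteine that feeds glutathione synthesis, and the large neutral amino acid carriers Slc7a5 (LAT1) and Slc7a8 (LAT2) trade one neutral amino acid for another. Carriers such as Slc1a5 (ASCT2), Slc38a1 and Slc38a2 bring in the glutamine and small neutral amino acids on which such exchange draws. Dividing and activated leukocytes are known for high Slc7a5 and Slc3a2, and starvation for amino acids raises several of these genes through the transcription factor ATF4.

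The deposited values are DESeq2 variance stabilised values on a log2-like scale, from which whole reads per gene were recovered. A normalised count below is the number of recovered reads divided by the size factor of the library. Libraries held 11508002 to 21289164 reads assigned to genes. Differences, small intestine minus bone marrow, were tested on the deposited log2 scale with limma across all 38392 genes, and a gene is called at an adjusted p of at most 0.05 after Benjamini-Hochberg adjustment. On this scale a gene with few reads moves less than its fold change.

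The marker genes matched the labelled cell type in part. The markers Ccr3, Siglecf and Il5ra were present in every library, and the summed normalised count of 9 eosinophil markers ran from 2632 to 4374 in the marrow and from 16985 to 25237 in the intestine. Of the 9, 3 were called higher (Ccr3, Siglecf and Il5ra), 5 lower and 1 was not called, with a median difference of -2.46, and the lower ones were the granule protein genes Epx, Prg2 and Prg3 and the ribonuclease genes Ear1 and Ear2. Summed counts of 9 genes of neutrophils and their precursors, such as Mpo, Elane and S100a8, were 465989 to 601345 in the marrow and 692 to 996 in the intestine, so the bone marrow libraries held more RNA of this kind than of the eosinophil markers. The 14 epithelial markers summed to 83.3 to 159.9 in bone marrow and to 3195 in SI_10, 4036 in SI_11, 9268 in SI_7 and 22488 in SI_6. Plasma and B cell markers summed to 305 to 566 in the marrow and to 5745 in SI_10, 17350.3 in SI_11, 30402 in SI_7 and 41653 in SI_6, led by Igha, Igkc and Jchain. Of these 8 markers, 3 were called higher, 2 lower and 3 were not called, with a median difference of 0.44. Of 11 macrophage and dendritic cell markers all were called higher, with sums of 876 to 1062 in the marrow and 29544 to 38532 in the intestine, led by Itgax and Adgre1. Adgre1 encodes EMR1, by which the authors identified human eosinophils, so this sum is not specific to macrophages and dendritic cells. All 5 endothelial markers were called higher too, with sums of 363 to 472 in the marrow and 7341 to 9725 in the intestine, led by Pecam1. In sorted cells measured in bulk, fewer cells of a type and less RNA per cell cannot be told apart. The part of neutrophil precursor, macrophage and dendritic, endothelial, plasma cell or epithelial RNA in the differences below was not tested, and for the genes lower in small intestine it cannot be told apart from the tissue, since the neutrophil precursor sum was high in every marrow library and low in every intestinal one. The order of the epithelial markers over the small intestine libraries is given beside the results that share it. Plasma and B cell markers had the same order, so it is not particular to epithelial RNA.

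Of the 63 transporter genes, 24 (38.1%) were called higher and 10 (15.9%) lower in small intestine, and 29 were not called. Over all genes 22.0% were called higher and 12.9% lower, a split that turns to 11.2% higher and 26.6% lower when each library is centred on its median. All small intestine libraries lay above all bone marrow libraries for 24 transporter genes (38.1%) and below them for 11 (17.5%), against 20.3% and 13.9% of all genes. The median difference was 1.34 over the 63 genes and 0.37 over all genes. Among the 42 transporter genes with a mean of 10 reads or more, 21 (50%) were called higher, 10 (23.8%) lower and 11 were not called, and among the 16215 genes of the table with that many reads 34.6% were called higher and 28.6% lower. Of the 21 transporter genes with fewer reads, limma called 3 higher and 0 lower, and 0 were lower at an unadjusted p of 0.05 or with voom, while Slc6a15 was called lower with median-centred libraries and with quantile normalisation. Among the 22177 genes of the table with a mean under 10 reads, 2862 were called higher and only 307 lower. Of the 22 members that reached a mean of 100 normalised counts in a tissue, 9 were called higher, 9 lower and 4 were not called. The shares of all genes at this cut-off were not computed.

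**Figure D1:**
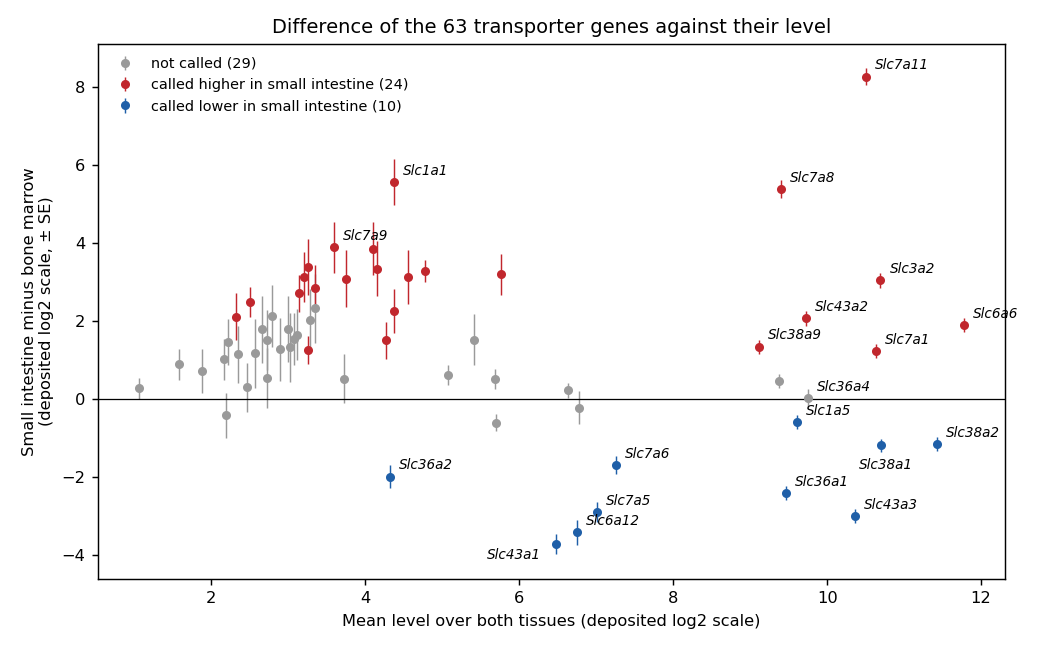
Difference between small intestine and bone marrow (vertical axis, deposited log2 scale, bars ± SE from limma) against the mean level of both tissues (horizontal axis, deposited log2 scale) for the 63 transporter genes. Slc7a11 stands at 8.26 above all others, the called decreases lie at high and intermediate levels, and most genes that were not called lie at low levels.

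The summed normalised count of all 63 genes was 20603 ± 727 (SD, n = 4) in the marrow and 54382 ± 4250 (SD, n = 4) in the intestine, and a single gene made up most of the increase. Slc7a11 held 0.392% ± 0.0977 (SD, n = 4) of this sum in the marrow and 46.9% ± 2.77 (SD, n = 4) in the intestine. The other 62 genes together went from 20523 ± 737 to 28827 ± 1973 (SD, n = 4 each). In bone marrow the largest parts were Slc38a2 at 20.1% ± 2.08, Slc43a3 at 18.1% ± 1.07 and Slc38a1 at 12.2% ± 0.884 (SD, n = 4 each). In small intestine Slc6a6 at 12.5% ± 1.33, Slc3a2 at 8.75% ± 0.802 and Slc7a8 at 8.07% ± 0.763 followed Slc7a11 (SD, n = 4 each). These parts are not corrected for gene length, which favours long genes. Slc7a11 has 13922 bases of exon, against 8457 for Slc6a6, 3529 for Slc3a2 and 5005 for Slc7a8. Slc38a1 has 17236, against 8838 for Slc38a2 and 4464 for Slc43a3.

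**Figure D2:**
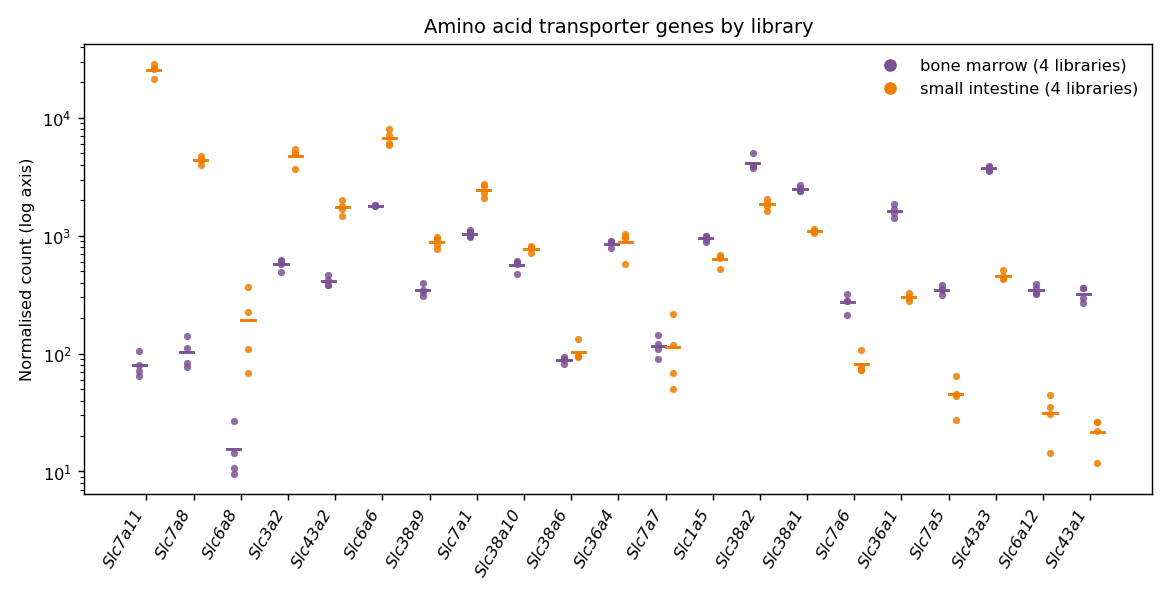
Normalised counts (log axis) in each of the 8 libraries for transporter genes that reached a mean of 100 normalised counts in a tissue, ordered by their difference, with 1 point per library and a line at the mean of each tissue. Slc1a1, with 4 bone marrow reads in all, is left out. Slc7a11 and Slc7a8 are highest over bone marrow at the left, and Slc43a1, Slc6a12 and Slc43a3 are furthest below it at the right.

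The cystine carrier Slc7a11 had the largest difference of all transporter genes. The gene lies at chr3:49892526-50443614 (GRCm38, minus strand). Its normalised counts were 64.4 in BM_1, 79.6 in BM_3, 71.8 in BM_4 and 106 in BM_5, and 21327 in SI_6, 28415 in SI_7, 26663 in SI_10 and 25814 in SI_11. The groups were far apart, and SI_6, the library with the most epithelial marker RNA, was the lowest of the small intestine. The difference was 8.26 ± 0.22 (SE, adjusted p = 1.81e-07 by limma), a ratio of means of 318. Per kilobase of exon, Slc7a11 ranked at 286 of all genes in small intestine and at 14550 in bone marrow.

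Because Slc7a11 is a known target of the amino acid response, the bases before its start are shown for their motifs. The RefSeq table of promoters (GRCm38.p6) held 66 windows for 45 of the 63 transporter genes, since some genes have several starts, and the 250 bases before each start were searched on both strands. Bases after the start and the 18 transporter genes without a window were not searched, so an element there would be missed. The motif TGATGNAA is the C/EBP-ATF response element (CARE) that ATF4 can bind, TGACNNNGC is the core of the antioxidant response element (ARE) bound by NRF2, and GCGTG is the core bound by the aryl hydrocarbon receptor. CARE letters were present in 3.45% of the 32851 windows of the table and before at least 1 start in 3.91% of its 27025 genes, against 3 of the 45 transporter genes, which were Slc7a11, Slc7a7 and Slc6a21. At least 2 copies were present in 0.0396% of windows (13 windows), of which the Slc7a11 window was 1, with copies starting 66 and 47 bases before the start and on opposite strands. Neither copy overlapped another of the searched motifs, and no ARE or aryl hydrocarbon receptor core letters were found in this window. The window spans chr3:50443614-50443863 on the minus strand, 5′ to 3′, with the CARE letters in capitals:
Slc7a11: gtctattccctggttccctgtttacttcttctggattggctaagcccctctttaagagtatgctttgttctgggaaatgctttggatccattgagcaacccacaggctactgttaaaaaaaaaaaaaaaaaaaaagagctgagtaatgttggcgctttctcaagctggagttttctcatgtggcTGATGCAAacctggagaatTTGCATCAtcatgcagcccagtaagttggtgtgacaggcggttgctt
The CARE letters of the other carriers are shown with their flanks to set them beside those of Slc7a11. Slc7a7 had them before each of 2 starts, at chr14:54418067-54418096 and chr14:54417927-54417952 (minus strand), and Slc6a21 at chr7:45282834-45282863 (plus strand):
Slc7a7: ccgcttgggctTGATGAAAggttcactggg
Slc7a7: tagaagcTGATGCAAcagcttccccg
Slc6a21: agaggtgagaaTTACATCAagtgggcctcc
Neither Slc7a7 nor Slc6a21 was called. The ARE letters were present in 11.5% of all genes with a window and in 8 of the 45 transporter genes, 3 of which were among the 5 genes called lower that had a window and 2 among the 20 called higher. The 3 lower genes, Slc38a2, Slc43a1 and Slc7a6, and the well-covered higher gene Slc7a1 are shown with the ARE letters in capitals (chr15:96699737-96699765, minus strand; chr2:84840297-84840322, plus strand; chr8:106168843-106168871, plus strand; and chr5:148399905-148399925, minus strand, in that order):
Slc38a2: ccccgcccacTGACGCGGCgccccgccgc
Slc43a1: agcgccgccgGCTGTGTCAggcggga
Slc7a6: ccggtgcgagTGACGTGGCgtgggcgggg
Slc7a1: cggccgcgcgGCGCTGTCAtt
The core of the aryl hydrocarbon receptor motif was present in 30.9% of all genes with a window and in 17 of the 45 transporter genes. These are matches of letters only, and whether a factor binds there in eosinophils was not measured.

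The heavy chain Slc3a2 rose with its light chain Slc7a11. Slc3a2 (chr19:8706882-8723369, GRCm38, minus strand) had normalised counts of 626 in BM_1, 578 in BM_3, 611 in BM_4 and 493 in BM_5, and of 3712 in SI_6, 5033 in SI_7, 4979 in SI_10 and 5397 in SI_11. The groups did not overlap, and SI_6 was again the lowest of the small intestine libraries. The difference was 3.03 ± 0.20 (SE, adjusted p = 1.18e-05 by limma), a ratio of means of 8.28. The other heavy chain, Slc3a1 (rBAT), which carries the light chain Slc7a9 in the brush border of kidney and intestine, had 3.83 in BM_1, 5.22 in BM_3, 6.70 in BM_4 and 9.30 in BM_5 against 114 in SI_6, 65.2 in SI_7, 13.1 in SI_10 and 27.3 in SI_11. It was called higher (2.26 ± 0.57, SE, adjusted p = 0.0144 by limma) at a level far below that of Slc3a2, and its order over the small intestine libraries was that of the epithelial markers. The call was lost with quantile normalisation (1.39, adjusted p = 0.140 by limma) and without SI_7 (2.06, adjusted p = 0.0563 by limma). Exons of Slc3a1 share 601 bases with exons of Prepl on the opposite strand, whose mean was 338 reads, and whether counting used strand is not given in the sources.

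Of the 10 light chain genes, 3 were called higher, 2 lower and 5 were not called (all genes: 22.0% higher, 12.9% lower). Slc7a8 (LAT2), a carrier of small and large neutral amino acids, had normalised counts of 83.5 in BM_1, 77.6 in BM_3, 142 in BM_4 and 112 in BM_5, and of 4395 in SI_6, 4395 in SI_7, 3970 in SI_10 and 4739 in SI_11. All small intestine libraries were high and close to each other, at 42.2 times the bone marrow mean (5.39 ± 0.23, SE, adjusted p = 1.48e-06 by limma). Slc7a5 (LAT1), a carrier of leucine and other large neutral amino acids, moved the other way, with 313 in BM_1, 381 in BM_3, 354 in BM_4 and 349.6 in BM_5 against 64.4 in SI_6, 45.8 in SI_7, 27.3 in SI_10 and 43.9 in SI_11. It fell by 2.90 ± 0.26 (SE, adjusted p = 5.67e-05 by limma), a bone marrow mean 7.71 times that of small intestine, and its highest small intestine value was in SI_6. Slc7a6, which exchanges cationic for neutral amino acids, fell by 1.70 ± 0.22 (SE, adjusted p = 0.000459 by limma), from 274 ± 45.7 to 82.1 ± 16.8 normalised counts (SD, n = 4 each).

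The remaining light chains were at low levels or were not called. Slc7a7, which like Slc7a6 exports cationic amino acids, had 90.4 in BM_1, 109 in BM_3, 144 in BM_4 and 122 in BM_5 against 215 in SI_6, 119 in SI_7, 50.3 in SI_10 and 68.7 in SI_11. The groups overlapped, the small intestine values followed the order of the epithelial markers, and the difference was -0.23 ± 0.42 (SE, adjusted p = 0.701 by limma). Without SI_6 and SI_7 it was -0.92 (adjusted p = 0.0394 by limma), and exons of Slc7a7 share 232 bases with those of Oxa1l on the opposite strand, which had a mean of 482 reads. Slc7a9, the partner of Slc3a1, had no read in BM_1 and BM_4, 1 read in BM_3 and 5 in BM_5, and its normalised counts were 123 in SI_6, 56.9 in SI_7, 20.8 in SI_10 and 21.3 in SI_11. It was called higher (3.89 ± 0.66, SE, adjusted p = 0.00186 by limma), and its values again had the order of the epithelial markers. Slc7a10, Slc7a12, Slc7a13 and Slc7a15 each had a mean under 10 reads and were not called.

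Set beside each other per kilobase of exon, the light chains that pair with Slc3a2 changed from a mixture led by Slc7a5 to one made almost wholly of Slc7a11 and Slc7a8. In bone marrow Slc7a5 held 43.9% ± 3.63 of the summed light chain counts per kilobase, Slc7a6 27.7% ± 2.12, Slc7a7 16.2% ± 1.67, Slc7a8 9.53% ± 2.05 and Slc7a11 2.67% ± 0.451 (SD, n = 4 each). In small intestine Slc7a11 held 66.0% ± 3.94, Slc7a8 31.6% ± 2.92, Slc7a7 1.27% ± 0.918, Slc7a6 0.656% ± 0.185 and Slc7a5 0.447% ± 0.176 (SD, n = 4 each). None of these 5 shares overlapped between the libraries of the tissues. The shares are parts of the same sum, so an increase of some lowers the others. Slc7a7 itself had 35.1 ± 6.86 normalised counts per kilobase in the marrow and 34.2 ± 22.3 in the intestine (SD, n = 4 each). The light chains summed to 215.8 ± 25.1 normalised counts per kilobase in the marrow and to 2774 ± 198 in the intestine, and Slc3a2 had 163.5 ± 16.9 and 1355 ± 208 (SD, n = 4 each). The ratio of the light chain sum to Slc3a2 was 1.34 ± 0.264 in the marrow and 2.07 ± 0.232 in the intestine (SD, n = 4 each), with the lowest small intestine library at 1.86 and the highest bone marrow library at 1.66.

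**Figure D3:**
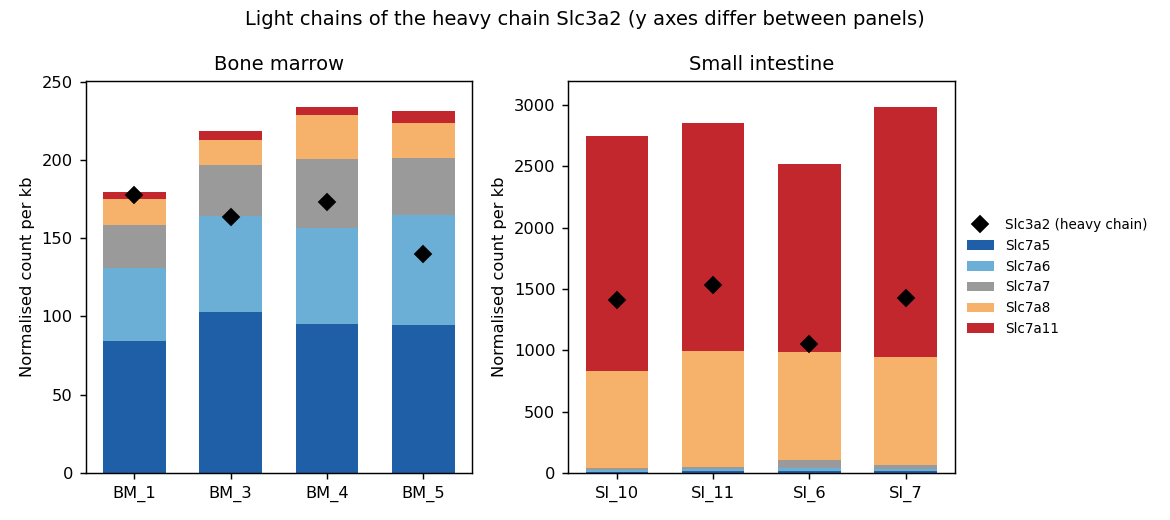
Normalised counts per kilobase of exon of the light chains that pair with Slc3a2, stacked for each library, with Slc3a2 itself as a diamond; the vertical axes of the bone marrow and small intestine panels differ. Slc7a5 and Slc7a6 fill most of the bone marrow bars, and Slc7a11 and Slc7a8 nearly all of the small intestine bars.

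Of the 5 Slc7 genes of the cationic carrier branch, which need no heavy chain, only Slc7a1 was called (all genes: 22.0% higher, 12.9% lower). Slc7a1 (CAT1), the widely expressed carrier of arginine and lysine, had 968 in BM_1, 993 in BM_3, 1077 in BM_4 and 1121 in BM_5 against 2089 in SI_6, 2757 in SI_7, 2295 in SI_10 and 2625 in SI_11. It was higher in all 4 small intestine libraries, by 1.22 ± 0.18 (SE, adjusted p = 0.000938 by limma). The call was lost when each library was centred on the median of all genes (0.32, adjusted p = 0.602 by limma). Slc7a2, the inducible arginine carrier, ranged from 4.6 to 69.7 in bone marrow and from 35.6 to 98.2 in small intestine, and was not called (1.51 ± 0.65, SE, adjusted p = 0.112 by limma). Slc7a3, Slc7a4 and Slc7a14 were not called either.

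The Slc43 carriers of large neutral amino acids moved in both directions, and the adenine carrier of the same family was among the highest genes in bone marrow. Slc43a3, which is known to carry purine bases, had 3824 in BM_1, 3904 in BM_3, 3630 in BM_4 and 3529 in BM_5 against 441 in SI_6, 513 in SI_7, 429.9 in SI_10 and 455 in SI_11. All bone marrow libraries were about equally high, and the gene fell by 3.01 ± 0.17 (SE, adjusted p = 5.13e-06 by limma). Slc43a1 (LAT3) fell by 3.73 ± 0.26 (SE, adjusted p = 1.7e-05 by limma), the largest decrease among the 63 genes, with 364 in BM_1, 299 in BM_3, 359 in BM_4 and 268 in BM_5 against 26.2 in SI_6, 26.3 in SI_7, 21.9 in SI_10 and 11.9 in SI_11. Slc43a2 (LAT4) was called higher, by 2.06 ± 0.19 (SE, adjusted p = 6.03e-05 by limma), with 461 in BM_1, 385 in BM_3, 419 in BM_4 and 386 in BM_5 against 1477 in SI_6, 1672 in SI_7, 1798 in SI_10 and 2022 in SI_11. Both facilitated leucine carriers of the family were thus called, 1 lower and 1 higher. Slc43a3 and Slc43a1, like every other gene called lower, were higher in the libraries with 465989 to 601345 summed counts of neutrophil precursor markers. Those markers summed to 692 to 996 in the intestine.

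Among the sodium-coupled carriers of the Slc38 family, 4 of 11 were called higher, 2 lower and 5 were not called (all genes: 22.0% higher, 12.9% lower). Slc38a2 (SNAT2), which takes up glutamine, alanine and other small neutral amino acids, had 3897 in BM_1, 3947 in BM_3, 5021 in BM_4 and 3737 in BM_5 against 1893 in SI_6, 1636 in SI_7, 1797 in SI_10 and 2060.0 in SI_11. It fell by 1.16 ± 0.19 (SE, adjusted p = 0.00149 by limma), and its relative Slc38a1 (SNAT1) fell by 1.19 ± 0.16 (SE, adjusted p = 0.000631 by limma), from 2512 ± 146 to 1097 ± 38 normalised counts (SD, n = 4 each). Slc38a9, the lysosomal arginine carrier and sensor that signals to mTORC1, rose from 347 ± 38.6 to 882 ± 91.3 (SD, n = 4 each), by 1.34 ± 0.18 (SE, adjusted p = 0.000615 by limma), and this call too was lost with libraries centred on the median of all genes (0.44, adjusted p = 0.471). Slc38a10 had 475 to 616 in bone marrow and 707 to 819 in small intestine, and the groups did not overlap, but the adjusted p by limma was 0.0811 (0.46 ± 0.18, SE). Slc38a6 had 80.9 to 92.8 normalised counts in bone marrow and 93.6 to 132 in small intestine, which did not overlap either, and was not called (0.22 ± 0.19, SE, adjusted p = 0.436 by limma). The other 3 called members, Slc38a3, Slc38a5 and Slc38a8, reached at most 52.5 normalised counts in any library, and Slc38a3 and Slc38a8 had 2 bone marrow reads each, all in BM_5.

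The glutamine carrier Slc1a5 showed a small decrease. Slc1a5 (ASCT2), which exchanges neutral amino acids with sodium, had 886 in BM_1, 999.7 in BM_3, 988 in BM_4 and 946 in BM_5 against 688 in SI_6, 661 in SI_7, 526 in SI_10 and 652 in SI_11. The groups did not overlap, and the gene fell by 0.60 ± 0.18 (SE, adjusted p = 0.0302 by limma). The call was lost without BM_3 (adjusted p = 0.0526) or without BM_4 (adjusted p = 0.0684), both by limma. Its relative Slc1a4 (ASCT1) was called higher (2.71 ± 0.47, SE, adjusted p = 0.00226 by limma), from 0 to 1.53 normalised counts in bone marrow to 12.0 in SI_10, 13.0 in SI_11, 13.9 in SI_7 and 52.4 in SI_6.

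The high-affinity glutamate carriers of the Slc1 family were nearly absent from bone marrow. Slc1a1 (EAAT3), a glutamate and cysteine carrier of neurons and of the brush border, had no read in BM_1 and BM_3, 1 in BM_4 and 3 in BM_5, and its normalised counts were 368 in SI_6, 162 in SI_7, 87.5 in SI_10 and 67.6 in SI_11. The groups were far apart, and the libraries with more epithelial marker RNA, SI_6 and SI_7, were the highest. The difference was 5.55 ± 0.59 (SE, adjusted p = 0.000147 by limma). Slc1a2 and Slc1a3, the glial glutamate carriers, were called higher as well, at means of 53.8 ± 12.8 and 38.3 ± 17.7 normalised counts in small intestine (SD, n = 4 each), and both calls were lost without SI_6 and SI_7. Slc1a6 and Slc1a7 were not called.

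Of the 4 proton-coupled carriers of the Slc36 family, 2 were called lower, 1 higher and 1 was not called (all genes: 12.9% lower, 22.0% higher). Slc36a1 (PAT1), which moves small amino acids out of lysosomes, had 1683 in BM_1, 1411 in BM_3, 1871 in BM_4 and 1567 in BM_5 against 329.7 in SI_6, 304 in SI_7, 278 in SI_10 and 299.9 in SI_11. The groups did not overlap, and the gene fell by 2.41 ± 0.18 (SE, adjusted p = 2.17e-05 by limma). Its neighbour on chromosome 11, Slc36a2, a carrier of glycine and proline, fell by 2.0 ± 0.30 (SE, adjusted p = 0.001 by limma), from 37.9 ± 13.2 to 6.77 ± 2.31 (SD, n = 4 each). Slc36a3, which lies beside both and was named after its values were seen, rose from 5.76 ± 2.60 to 82.9 ± 17.5 (SD, n = 4 each, difference 3.28 ± 0.29, SE, adjusted p = 6.02e-05 by limma). Slc36a4 had 877 in BM_1, 901 in BM_3, 781 in BM_4 and 879 in BM_5 against 576 in SI_6, 951 in SI_7, 973 in SI_10 and 1043 in SI_11, and was not called (0.01 ± 0.23, SE, adjusted p = 0.977 by limma), with SI_6 the lowest of all libraries.

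All 3 Slc6 carriers of taurine, proline and creatine were called higher (all genes: 22.0% higher, 12.9% lower). Slc6a6 (TauT) imports taurine, an abundant free amino acid of granulocytes, and had 1817 in BM_1, 1811 in BM_3, 1795 in BM_4 and 1801 in BM_5 against 6164 in SI_6, 7152 in SI_7, 5844 in SI_10 and 8041 in SI_11. The bone marrow libraries were almost equal and all small intestine libraries were well above them (1.90 ± 0.18, SE, adjusted p = 8.52e-05 by limma), but with libraries centred on the median of all genes the adjusted p by limma was 0.0792 (difference 1.0). Slc6a8, the creatine carrier, had 10.7 in BM_1, 14.3 in BM_3, 9.57 in BM_4 and 27.0 in BM_5 against 369 in SI_6, 227 in SI_7, 68.9 in SI_10 and 110.2 in SI_11, in the order of the epithelial markers. It was called higher by 3.19 ± 0.53 (SE, adjusted p = 0.00164 by limma). The proline carrier Slc6a7 had 4 bone marrow reads in all and 81.9 in SI_6, 27.7 in SI_7, 38.3 in SI_10 and 4.74 in SI_11 (3.38 ± 0.71, SE, adjusted p = 0.00578 by limma), and its call was lost without SI_6 and SI_7 (2.64, adjusted p = 0.0790).

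Of the 9 Slc6 carriers of neurotransmitters and betaine, 2 were called higher, 1 lower and 6 were not called (all genes: 22.0% higher, 12.9% lower). The decrease was that of Slc6a12 (BGT1), a carrier of betaine and GABA, which had 362 in BM_1, 318 in BM_3, 393 in BM_4 and 324 in BM_5 against 44.8 in SI_6, 30.5 in SI_7, 35.0 in SI_10 and 14.2 in SI_11. The groups were far apart, and the gene fell by 3.43 ± 0.31 (SE, adjusted p = 6.51e-05 by limma). The adjacent GABA carrier Slc6a13 was lower in all 4 small intestine libraries, at 30.8 to 45.8 against 50.7 to 84.8, but was not called (-0.61 ± 0.23, SE, adjusted p = 0.0698 by limma). The serotonin carrier Slc6a4, named after its values were seen, was called higher (3.12 ± 0.70, SE, adjusted p = 0.00804 by limma), with 213 in SI_6, 77.7 in SI_7, 27.3 in SI_10 and 37.9 in SI_11, in the order of the epithelial markers, and its call was lost without SI_6 and SI_7.

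The carriers known for amino acid absorption in the enterocyte brush border, Slc1a1, Slc3a1, Slc6a14, Slc6a19, Slc6a20a and Slc7a9, were 5 of 6 called higher, with a median difference of 3.49. Among all genes with a mean of 10 reads or more, which 5 of the 6 had, 34.6% were called higher and 28.6% lower. Slc6a20a, a proline and imino acid carrier, had 0 in BM_1, 3.91 in BM_3, 1.91 in BM_4 and 2.79 in BM_5 against 224 in SI_6, 66.6 in SI_7, 24.1 in SI_10 and 36.7 in SI_11 (3.85 ± 0.69, SE, adjusted p = 0.00245 by limma). Slc6a19 (B0AT1), the main neutral amino acid carrier of the brush border, had reads only in BM_5 among the bone marrow libraries, at 10.2, and 32.7 in SI_6, 25.0 in SI_7, 15.3 in SI_10 and 23.7 in SI_11 (3.12 ± 0.65, SE, adjusted p = 0.00545 by limma). For both genes SI_6 was the highest library and SI_10 the lowest, as for the epithelial markers. Slc6a14, a carrier of neutral and cationic amino acids, had 2.18 to 12.5 normalised counts in small intestine and was not called (1.47 ± 0.59, SE, adjusted p = 0.0894 by limma). Slc6a20a shares sequence with its near copy Slc6a20b, and its exons overlap those of Ccr9 on the opposite strand by 22 bases, so its reads are uncertain.

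Across the small intestine libraries, 50 transporter genes had a mean of at least 10 normalised counts, and 11 of them had exactly the order of the 14 epithelial markers, SI_10 lowest and SI_6 highest. These were Slc1a4, Slc1a5, Slc3a1, Slc6a4, Slc6a8, Slc6a19, Slc6a20a, Slc7a5, Slc7a7, Slc7a9 and Slc36a1, of which Slc1a5, Slc7a5 and Slc36a1 were called lower in small intestine. The ratio of the highest to the lowest library ranged from 1.19 for Slc36a1 and 1.31 for Slc1a5 to 9.30 for Slc6a20a. How many of all genes have this order was not counted. The order is not particular to epithelial markers. Smooth muscle markers had it too, with sums of 706 in SI_10, 989 in SI_11, 1259 in SI_7 and 1761 in SI_6. So did the Paneth and goblet cell markers and the plasma and B cell markers. SI_6 was the highest library for 21 of the 50, SI_10 for 15, and SI_7 and SI_11 for 7 each. The epithelial sum of SI_6 was 7.04 times that of SI_10. Slc7a11 and Slc3a2 were lowest in SI_6, and Slc6a6 was lowest in SI_10 and highest in SI_11. Without SI_6 and SI_7, a setting added after seeing the data, 14 of the 63 transporter genes were called higher and 11 lower. Over all genes 17.7% were called higher and 12.6% lower in that setting. The 10 higher calls lost were Slc1a2, Slc1a3, Slc3a1, Slc6a4, Slc6a7, Slc6a9, Slc6a17, Slc6a19, Slc38a3 and Slc38a5, of which none exceeded a mean of 100 normalised counts, while the 14 still called were Slc3a2, Slc6a6, Slc7a1, Slc7a8, Slc7a11, Slc38a9 and Slc43a2 and, at lower levels, Slc1a1, Slc1a4, Slc6a8, Slc6a20a, Slc7a9, Slc36a3 and Slc38a8, of which Slc1a1, Slc1a4, Slc6a8, Slc6a20a and Slc7a9 were highest in SI_6. The lost genes had a median difference of 2.46 in the 6 remaining libraries and of 2.96 in all 8, and ranged from 1.18 to 3.41 with 2 intestinal libraries left. The difference of Slc3a1 went from 2.26 to 1.27 and that of Slc6a4 from 3.12 to 2.17, whereas Slc6a19 went from 3.12 to 2.87 and Slc1a2 from 3.33 to 3.41. The part of epithelial RNA, or of other RNA with the same order of libraries, in the calls was not tested further.

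**Figure D4:**
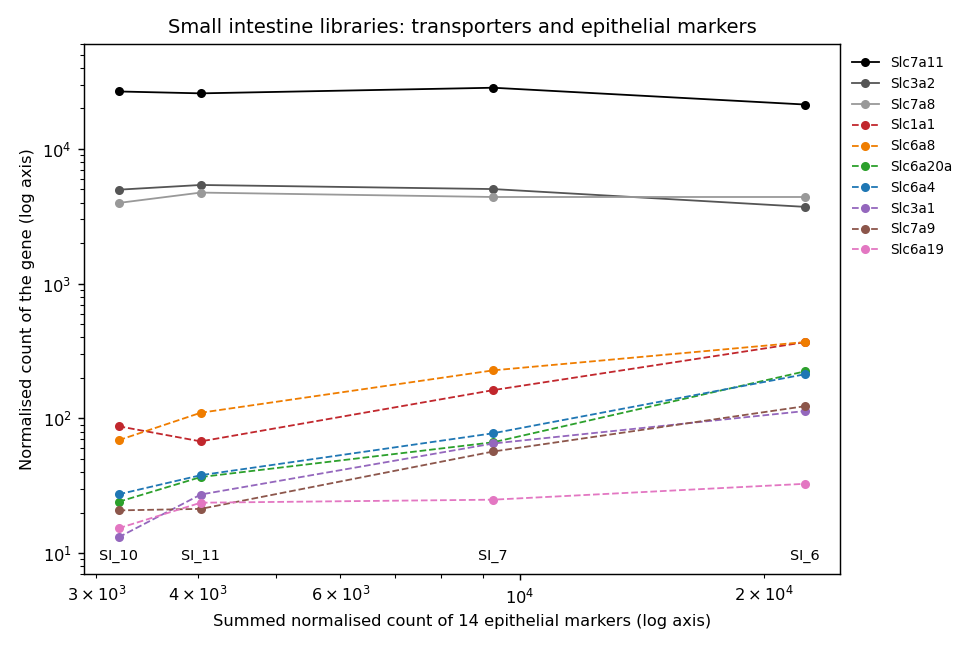
Normalised counts of 10 transporter genes (vertical axis, log) in the 4 small intestine libraries against the summed normalised count of 14 epithelial markers in the same library (horizontal axis, log). Slc7a11, Slc3a2 and Slc7a8 (solid lines) stay level or are lowest in SI_6, while Slc1a1, Slc6a8, Slc6a20a, Slc6a4, Slc3a1, Slc7a9 and Slc6a19 (dashed lines) are highest in SI_6.

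The 21 transporter genes with a mean under 10 reads had unequal reads within each tissue. Their summed reads were 24 in BM_1, 42 in BM_3, 4 in BM_4 and 199 in BM_5, and 111 in SI_6, 117 in SI_7, 302 in SI_10 and 67 in SI_11. BM_5 and SI_10 were the highest of their tissues. Without BM_5, 36 transporter genes were called higher in place of 24, and 10 lower, while higher calls over all genes went from 8465 to 9596. BM_5 held reads in 30886 genes, against 19713 to 24592 in the other marrow libraries. The best covered of the 12 genes gained was Slc38a10, and Slc7a2 and Slc6a20b were among them.

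**Figure D5:**
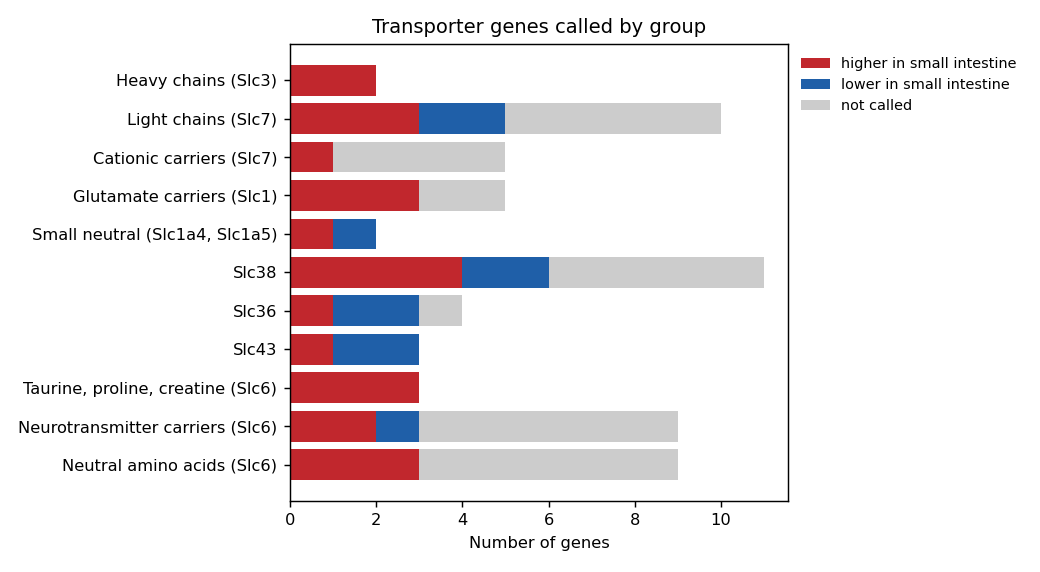
Number of transporter genes (horizontal axis) called higher in small intestine, called lower and not called, in each of the 11 functional groups of the 63 genes. Increases and decreases stand side by side in the light chain, Slc38, Slc36 and Slc43 groups, and both heavy chains are called higher.

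By level per kilobase of exon, the leading transporter genes of bone marrow were Slc43a3 at 834 ± 38.7, Slc38a2 at 469.6 ± 66.4, Slc36a1 at 290.3 ± 34.5, Slc1a5 at 229 ± 12.3 and Slc6a6 at 213 ± 1.15 normalised counts per kilobase (SD, n = 4 each). In small intestine they were Slc7a11 at 1836 ± 217, Slc3a2 at 1355 ± 208, Slc7a8 at 874 ± 62.9, Slc6a6 at 804 ± 118 and Slc7a1 at 212 ± 26.4 (SD, n = 4 each). Neighbours within about 1 SD of each other were Slc7a8 and Slc6a6 and also Slc7a1 and Slc38a2, the latter at 209 ± 20.1 (SD, n = 4). Slc6a6 was the only gene on both lists.

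The pathways that use these amino acids were described with the same test. Each count can be read against the 34.6% higher and 28.6% lower of all genes with a mean of 10 reads or more, which most genes of these lists have. Of 15 genes of the amino acid and integrated stress response, 11 were called higher and 3 lower, with a median difference of 2.39. The largest increase was that of Atf3, a stress-induced transcription factor, at 2.13 ± 1.15 in the marrow and 1951 ± 210.3 in the intestine (SD, n = 4 each, difference 8.57 ± 0.22, SE, adjusted p = 1.81e-07 by limma). The largest decrease was that of Asns, asparagine synthetase and a classical ATF4 target, with 376 in BM_1, 344 in BM_3, 349 in BM_4 and 343 in BM_5 against 163 in SI_6, 74.9 in SI_7, 52.5 in SI_10 and 53.3 in SI_11 (-2.15 ± 0.35, SE, adjusted p = 0.00153 by limma). Slc7a11, Slc3a2 and Slc7a1, which are also known targets of ATF4, were called higher, whereas Slc7a5 and Slc38a2, which are known targets too, were called lower. Increases and decreases thus stood side by side among these genes.

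Of 18 genes of amino acid synthesis, 3 were called higher and 10 lower, with a median difference of -1.32. Phgdh, the first enzyme of serine synthesis, fell by 4.43 ± 0.23 (SE, adjusted p = 3.56e-06 by limma), from 412 ± 25.9 to 16.1 ± 4.58 normalised counts (SD, n = 4 each). Cth, which makes cysteine from cystathionine, had the largest increase of the list (3.79 ± 0.59, SE, adjusted p = 0.00116 by limma), with 1.91 to 11.1 in bone marrow and 286 in SI_6, 112 in SI_7, 52.5 in SI_10 and 51.0 in SI_11, highest in the libraries with the most epithelial marker RNA. Of 18 genes of amino acid breakdown, 9 were called higher and 3 lower, with a median of 0.56. Arg2, the mitochondrial arginase, rose from 13.1 ± 2.73 to 402 ± 49.4 (SD, n = 4 each, 4.61 ± 0.20, SE, adjusted p = 1.62e-06 by limma), and Aldh4a1, of proline breakdown, fell by 1.90 ± 0.33 (SE, adjusted p = 0.00209 by limma).

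Of 13 genes that use cystine or glutathione, 7 were called higher and 4 lower, with a median difference of 0.77. Ggt5, a cell surface enzyme that cleaves glutathione conjugates, rose from 16.0 ± 7.07 to 354 ± 43.2 (SD, n = 4 each, 4.26 ± 0.30, SE, adjusted p = 1.6e-05 by limma). Gclm, the modifier subunit of the enzyme that joins cysteine to glutamate, fell by 1.73 ± 0.18 (SE, adjusted p = 0.00013 by limma), from 754 ± 82.5 to 224 ± 16.0 (SD, n = 4 each). Of 34 genes of amino acid sensing by mTORC1, 11 were called higher, 8 lower and 15 were not called, with a median of -0.20, shares near those of all genes with that many reads. Castor1, the cytosolic arginine sensor, rose from 0.996 ± 0.813 to 151 ± 27.0 (SD, n = 4 each, 5.47 ± 0.32, SE, adjusted p = 6.41e-06 by limma), and Lamtor4, a subunit of the Ragulator scaffold on lysosomes, fell by 1.90 ± 0.19 (SE, adjusted p = 0.000105 by limma). Of 19 carriers of amino acids or small peptides from other families, 5 were called higher and 6 lower, with a median of 0.04. The peptide carrier Slc15a2 had the largest increase (4.77 ± 1.33, SE, adjusted p = 0.0229 by limma), but its small intestine libraries were far apart, at 3286 in SI_6, 922 in SI_7, 4025 in SI_10 and 101 in SI_11, and the lowest of them lay under the 117 of BM_5. The vesicular GABA and glycine carrier Slc32a1 fell by 2.25 ± 0.34 (SE, adjusted p = 0.00101 by limma), from 23.9 ± 10.7 to 2.63 ± 1.71 (SD, n = 4 each).

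The calls of 20 transporter genes stood with the same sign under each of the 18 other settings that could fit them. How many of all genes kept their calls in this way was not counted. The 11 higher ones were Slc1a1, Slc1a4, Slc3a2, Slc6a8, Slc6a20a, Slc7a8, Slc7a9, Slc7a11, Slc36a3, Slc38a8 and Slc43a2. The 9 lower ones were Slc6a12, Slc7a5, Slc7a6, Slc36a1, Slc36a2, Slc38a1, Slc38a2, Slc43a1 and Slc43a3, which left Slc1a5 as the only decrease that a setting removed.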

How the data were processed

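Eosinophil RNA was amplified with the NuGEN Ovation system and sequenced from a single end, per the labels. The authors aligned reads to GRCm38, counted them per gene with the nf-core/rnaseq pipeline and, with DESeq2 in R 4.0.3, made the deposited variance stabilised log2 values; the aligner and the use of strand are not stated in those sources. Column names of the table gave the tissue but not the sample, so the 4 columns of each tissue were used as replicates, and 0 columns were left out.

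The transformation was inverted from the lowest deposited value (0.92971568), which gave whole reads within 0.05 for 100% of genes in each library. Totals were 11508002 to 21289164 reads. The deposited values of 38392 genes were tested with limma 3.58.1 (R 4.3.3), tissue as the only term, constant prior, no filter, two-sided, Benjamini-Hochberg adjustment, threshold 0.05. The script was tested on simulated data. Exon lengths and coordinates came from GENCODE M21 (all 38392 identifiers matched), promoters from RefSeq (GRCm38.p6).

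Named were 6 chosen carriers, the 6 largest called rises and falls without overlap, the 5 highest genes per kilobase in each tissue, members with at least 100 normalised counts in a tissue, the brush border carriers and, of each other list, the largest called rise and fall. Members and lists were chosen with earlier results of these data known. Listed symbols not found in the table (Slc66a1, Pycr3, Slc6a20) were not used. Other settings were voom on recovered reads, centring, quantile normalisation, a filter at a mean of 10 reads, a trended prior, pseudocounts of 1 and 5 and leaving out libraries. P-values test the difference between the tissues against the spread between these libraries, moderated over all genes. Not every member is reported by name here.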

Additional observations from a re-analysis of the deposited data

Results flagged for a closer look

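In each tissue the highest and lowest library of each named transporter gene were compared with the rest by Dixon's ratio, the gap to the nearest library over the whole range; the 95% critical value was applied. Of 58 groups 5 passed it, where chance gives about 1 in 20, or 2.9. In small intestine SI_6 stood apart in 3 of them, lowest for Slc36a4 (0.845), highest for Slc38a6 (0.937) and highest for Slc7a6 (0.833). In bone marrow BM_5 stood apart for Slc6a14 and Slc6a19 (1 for each), the other 3 libraries being tied at 0 reads.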

How the results depend on the processing

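Of 24 named genes that were called, 17 had the same call under every alternative. Leaving out 1 library at a time gave 30 to 46 called transporter genes, 21 to 36 higher and 9 to 10 lower, with the most higher calls without BM_5; with 3 libraries left in a tissue the fit still pools the spread. The number called higher was 14 without SI_6 and SI_7 (all genes: 17.7% higher), chosen after seeing the data. It was 31 without BM_5 and SI_10 and 23 with libraries centred on the median of genes with a mean of 10 reads or more, both also chosen after seeing the data. The median difference over all genes was 0.37, and was 0.89 with voom, -0.53 with libraries centred on their medians and -0.03 with quantile normalisation. Higher genes made up 70.6% of the called transporter genes, 62.9% with median-centred libraries, 64.7% with quantile normalisation and 76.2% with voom, where over all genes the share was 63.2%, 29.5%, 45.8% and 65.4% in that order; without SI_6 and SI_7 it was 56.0% against 58.3%. Genes that were not called changed sign. Slc36a4 was at -0.0065 with voom, -0.89 with median-centred libraries, -0.049 with quantile normalisation, -0.055 with centring on genes of 10 reads or more and -0.036 without BM_5 and SI_10, and ran from -0.081 to 0.20 with 1 library left out. With median-centred libraries Slc38a10 was at -0.44 and Slc38a6 at -0.68. Slc7a7 was at 0.10 without BM_5 and SI_10 and ran from -0.60 to 0.076 with 1 library left out. The cause was not tested. Depth limits the 21 transporter genes with a mean under 10 reads. No paired analysis was possible because the samples of the 2 tissues share no replicate number and the columns match no sample.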
